A study of Bruguiera gymnorhiza with 19 samples.

Results

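The 51 probes described here were the ones that read lower in leaves of Burma mangrove (*Bruguiera gymnorhiza*) after both 6 h and 24 h in NaCl and that did not read clearly lower in sorbitol, out of 11997 mangrove probes on the array. They were chosen by measured values. The level of a probe is log2 of its spot intensity plus 50, quantile-normalized over 18 arrays, and the rule used the means of 6 groups. A member had a highest group mean of at least 9.5. Its NaCl 6 h and NaCl 24 h means lay at least 0.7 below the NaCl 0 h mean and at least 0.3 below the sorbitol 0 h mean, and its sorbitol 6 h and 24 h means lay less than 0.4 below the sorbitol 0 h mean. Of the 11997 probes, 5184 reached the level, 340 of these also lay low enough against NaCl 0 h at both times, 88 remained after the limits against sorbitol 0 h, and 51 after those within the sorbitol series. The comparisons of 6 h and 24 h with 0 h that the rule used are given as a description, with no test.

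The study set salt stress beside osmotic stress in leaves of plants aged 3 years and 7 months, which had been raised in pots in the laboratory on a cycle of 12 h of light and 12 h of dark. The plants received 500 mM NaCl or 1 M sorbitol in place of their culture water, and leaves were taken after 6 h and 24 h. Leaves taken just before each treatment formed a 0 h group for NaCl and a separate 0 h group for sorbitol, and both 0 h groups were untreated. Each of the 6 groups (NaCl 0 h, 6 h and 24 h, sorbitol 0 h, 6 h and 24 h) held 3 biological replicates with the letters A, B and C, and the RNA of NaCl 0 h C was also put on a repeat array. Leaves kept untreated for 6 h or 24 h were not analysed here, so time in the experiment and treatment cannot be told apart. The labels do not say whether leaves of 1 letter came from the same plant.

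High NaCl in the water around the roots acts on a plant in 2 ways: it lowers the water potential, so that water is harder to take up, and it brings sodium and chloride ions into the tissue. Sorbitol at high concentration lowers the water potential without those ions. Mangroves such as *Bruguiera* keep much of the salt out at the root and store in vacuoles what reaches the leaf. Transcripts that read lower under stress can be made more slowly, be broken down faster, or come from fewer cells. An array of whole leaves measures their share in the RNA, and fewer cells of a type and less RNA per cell cannot be told apart in it.

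The files name the probes by clone or contig and give no gene descriptions, so the members are identified by their probe sequence. The last 2 numbers of a name are the first and last base of the probe in its clone or contig, and in all 11997 names they span the length of the probe. Of the members, 49 came from single clones and 2 from contigs (CL497Contig1 and CL1014Contig1), and contigs made up 3.92% of the members against 15.8% of the 5184 probes that reached a level of 9.5. No 2 members shared 20 or more consecutive bases, and whether some come from the same transcript was not tested. The sequences below are those of members with the lowest NaCl values relative to 0 h, the highest levels or the highest sorbitol values, and they show a feature the rule did not use: many were rich in C and T. They are printed as the scanner files give them, and capitals mark runs of 4 or more bases of C or T.
Bg01-01_I18_161_195: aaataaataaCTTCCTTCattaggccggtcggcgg
Bg05-08_M14_289_323: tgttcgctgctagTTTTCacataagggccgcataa
Bg05-21_L15_223_258: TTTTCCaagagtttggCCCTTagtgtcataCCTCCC
Bg05-23_F02_99_133: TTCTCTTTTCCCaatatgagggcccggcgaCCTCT
Bg05-16_N17_17_51: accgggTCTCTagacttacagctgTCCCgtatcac
Bg04-09_G21_373_407: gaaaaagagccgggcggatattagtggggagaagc
Bg04-07_O05_9_43: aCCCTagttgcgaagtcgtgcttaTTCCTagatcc
Bg04-20_F02_129_163: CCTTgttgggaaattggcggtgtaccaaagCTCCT
Bg05-16_A02_5_39: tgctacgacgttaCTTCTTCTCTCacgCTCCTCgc
Bg04-28_M13_415_449: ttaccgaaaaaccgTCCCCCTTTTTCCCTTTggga
Bg02-02_N16_293_327: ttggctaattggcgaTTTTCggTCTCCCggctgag
Bg03-07_A22_65_99: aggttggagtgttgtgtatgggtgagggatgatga
Bg04-21_A07_137_173: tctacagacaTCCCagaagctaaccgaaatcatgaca

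The share of C and T together had a median of 57.1% over the members, against 52.6% over the 5133 other probes of level 9.5 or more. In 45 of the 51 members C and T made up over 50% of the probe, against 60.3% of the other probes. The extremes were Bg04-20_H01_69_103 at 80.0% and Bg04-09_G21_373_407 at 22.9%. The longest runs stood in Bg04-28_M13_415_449 with 17 bases, Bg05-15_O02_9_43 with 13 and Bg05-23_F02_99_133 with 12. A run of 7 or more bases of C or T occurred in 15 members, or 29.4%, against 17.9% of the other probes. Median G and C content was the same in members and other probes, at 48.6%. The members lay nearer to the start of their clone or contig, with a median first base of 161, against 273 in the other probes. These are descriptions of the set, and no test was made of them.

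All values that follow are log2 levels on the normalized scale unless stated otherwise. The array reports 1 number per spot without a count behind it, so the precision rests on the 3 samples of a group. Measures within a spot are given first, and they do not cover low signal on whole arrays. Each member spot covered 8 to 18 pixels, the standard error within a spot had a median of 8.02% of its intensity, and no member spot was saturated or excluded in the files, while 1 of them had an intensity of 0. The median intensity of the member spots as scanned was 631 over the NaCl 6 h and 24 h arrays and 1478 over the NaCl 0 h arrays. Over the 18 arrays the median intensity of all mangrove probes ran from 52.9 to 1729, and on 4 arrays (NaCl 6 h C and the C arrays of the 3 sorbitol groups) it was under 85. All 51 members were among the 8642 probes that rose above the negative controls in at least 3 samples, and 33 did so in all 18.

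In NaCl leaves the 51 members had a median level of 10.16 at 0 h, 9.13 at 6 h and 9.13 at 24 h. In sorbitol leaves their median level was 9.57 at 0 h, 9.75 at 6 h and 9.58 at 24 h. The NaCl 6 h mean minus the NaCl 0 h mean ran from -1.56 to -0.73, and the NaCl 24 h mean minus the NaCl 0 h mean from -1.74 to -0.70. As a ratio of normalized intensities, members at 6 h had a median of 0.474 of their NaCl 0 h value and at 24 h a median of 0.505. The offset of 50 makes these ratios understate the change of dim probes. All 3 samples at 6 h and all 3 at 24 h lay below all 3 NaCl 0 h samples in 43 of the 51 members, and the same held for 8.04% of all probes tested. The rule used these values, so nothing is read from that count. NaCl 0 h was the highest group in 48 members. The exceptions, named after their values were seen, were Bg02-02_N16_293_327 and Bg05-22_C08_103_140, which were highest at sorbitol 24 h, and Bg04-21_A07_137_173, which was highest at sorbitol 6 h. The standard deviation between the 3 samples had a median over the members of 0.37 at NaCl 0 h, 0.24 at 6 h and 0.33 at 24 h.

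The 8 members with the lowest mean NaCl change, the mean of the 6 h and the 24 h difference from NaCl 0 h, are given sample by sample, in the order A, B and C. Bg01-01_I18_161_195 had the largest difference, with 10.40, 10.66 and 9.64 at NaCl 0 h, 8.86, 8.44 and 8.83 at 6 h and 8.43, 8.46 and 8.59 at 24 h. Its sorbitol samples read 9.12, 9.32 and 9.52 at 0 h, 9.59, 9.56 and 9.42 at 6 h and 9.33, 9.46 and 9.30 at 24 h. All 6 salt-treated samples of this probe lay below all 12 others. Bg05-08_M14_289_323 had 11.18, 11.38 and 11.06 at NaCl 0 h, 9.18, 9.76 and 9.99 at 6 h and 9.13, 9.70 and 9.99 at 24 h. Its NaCl groups did not overlap with 0 h, but its sorbitol samples, 9.81, 9.80 and 10.62 at 0 h, 9.57, 10.81 and 10.30 at 6 h and 9.23, 10.35 and 10.05 at 24 h, overlapped with the salt-treated ones.

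Bg05-21_L15_223_258 stood at a high level, with 11.68, 12.28 and 12.41 at NaCl 0 h, 10.67, 10.63 and 10.95 at 6 h and 10.68, 10.55 and 10.52 at 24 h. The values at 6 h and 24 h lay within 0.43 of each other, while its sorbitol 0 h samples spread widely, at 11.33, 10.67 and 12.17. Bg05-23_F02_99_133 had 12.15, 12.63 and 11.99 at NaCl 0 h, 10.02, 11.44 and 11.14 at 6 h and 9.93, 11.13 and 11.16 at 24 h. Sample A was the lowest of its group at both treated times, so this probe had the widest spread at 6 h and at 24 h of all members. Bg05-16_N17_17_51 had 9.62, 9.72 and 9.32 at NaCl 0 h, 7.85, 8.05 and 8.13 at 6 h and 7.87, 8.42 and 8.53 at 24 h. At 6 h it was not well above background on any of the 3 arrays, so its value there is a bound, and it was at least 2.64-fold lower than at 0 h. Such a bound sets the NaCl 0 h mean against the mean, per array, of the higher of the probe's own level and the lowest level among detected probes. It is a bound on the reading of the spot and takes no account of the shift with place on the array described below. The 6 h mean of Bg05-16_N17_17_51 lay at -1.54 relative to 0 h, where the local value from neighbouring probes was -0.78.

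Bg04-09_G21_373_407, the member poorest in C and T, had 9.90, 10.02 and 9.23 at NaCl 0 h, 8.86, 8.02 and 8.93 at 6 h and 7.83, 8.25 and 8.15 at 24 h. It was not well above background on any array at 24 h, which makes it at least 2.49-fold lower there than at 0 h. Bg04-07_O05_9_43 had 9.71, 10.53 and 9.72 at NaCl 0 h, 8.52, 8.18 and 9.09 at 6 h and 8.52, 8.88 and 8.58 at 24 h. Its sorbitol samples had a mean that was higher by 0.44 at 6 h, with 9.30, 9.48 and 10.24 at 6 h, against 9.03, 8.55 and 10.11 at 0 h. Replicate C was far above A and B at 0 h, so the groups overlapped. Bg04-20_F02_129_163 had 11.31, 11.04 and 10.78 at NaCl 0 h, 9.75, 9.495 and 9.88 at 6 h and 9.84, 9.49 and 9.71 at 24 h. Its 6 salt-treated samples lay within 0.39 of each other, and sorbitol 0 h B, at 9.54, lay within their range.

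The brightest member was Bg05-16_A02_5_39, with 12.04, 12.88 and 12.30 at NaCl 0 h, 10.502, 11.21 and 11.21 at 6 h and 10.49, 11.63 and 11.62 at 24 h. Bg04-28_M13_415_449, also among the 4 brightest, had 11.82, 12.18 and 11.72 at NaCl 0 h, 10.75, 11.06 and 11.30 at 6 h and 11.17, 11.23 and 11.15 at 24 h. Its NaCl groups were separate, but its sorbitol 0 h samples ran from 10.91 to 12.04 and overlapped with both sides. The mean NaCl change of the 4 brightest members, -1.45, -1.46, -1.30 and -0.80, covered most of the range of the whole set, which was -1.63 to -0.72.

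Probes close to the limits differ little from probes left out. Just inside were Bg05-21_G15_97_131, with a highest group mean at the limit of 9.5, Bg05-12_F01_147_183, which at NaCl 24 h lay at -0.70 relative to NaCl 0 h, and Bg04-07_C15_33_67, which at NaCl 24 h lay at -0.30 relative to sorbitol 0 h. Bg05-21_G15_97_131 was not well above background on any NaCl 24 h array and was at least 2.14-fold lower there than at NaCl 0 h. Just outside were Bg03-02_H21_358_395, with NaCl 6 h at -0.30 relative to sorbitol 0 h, Bg04-30_E06_109_143, with NaCl 24 h at -0.30, and Bg01-05_I05_366_401, with NaCl 6 h at -0.30. Against NaCl 0 h, Bg03-02_H21_358_395 lay at -1.46 at 6 h and -2.14 at 24 h, lower at 24 h than any member.

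**Figure D1:**
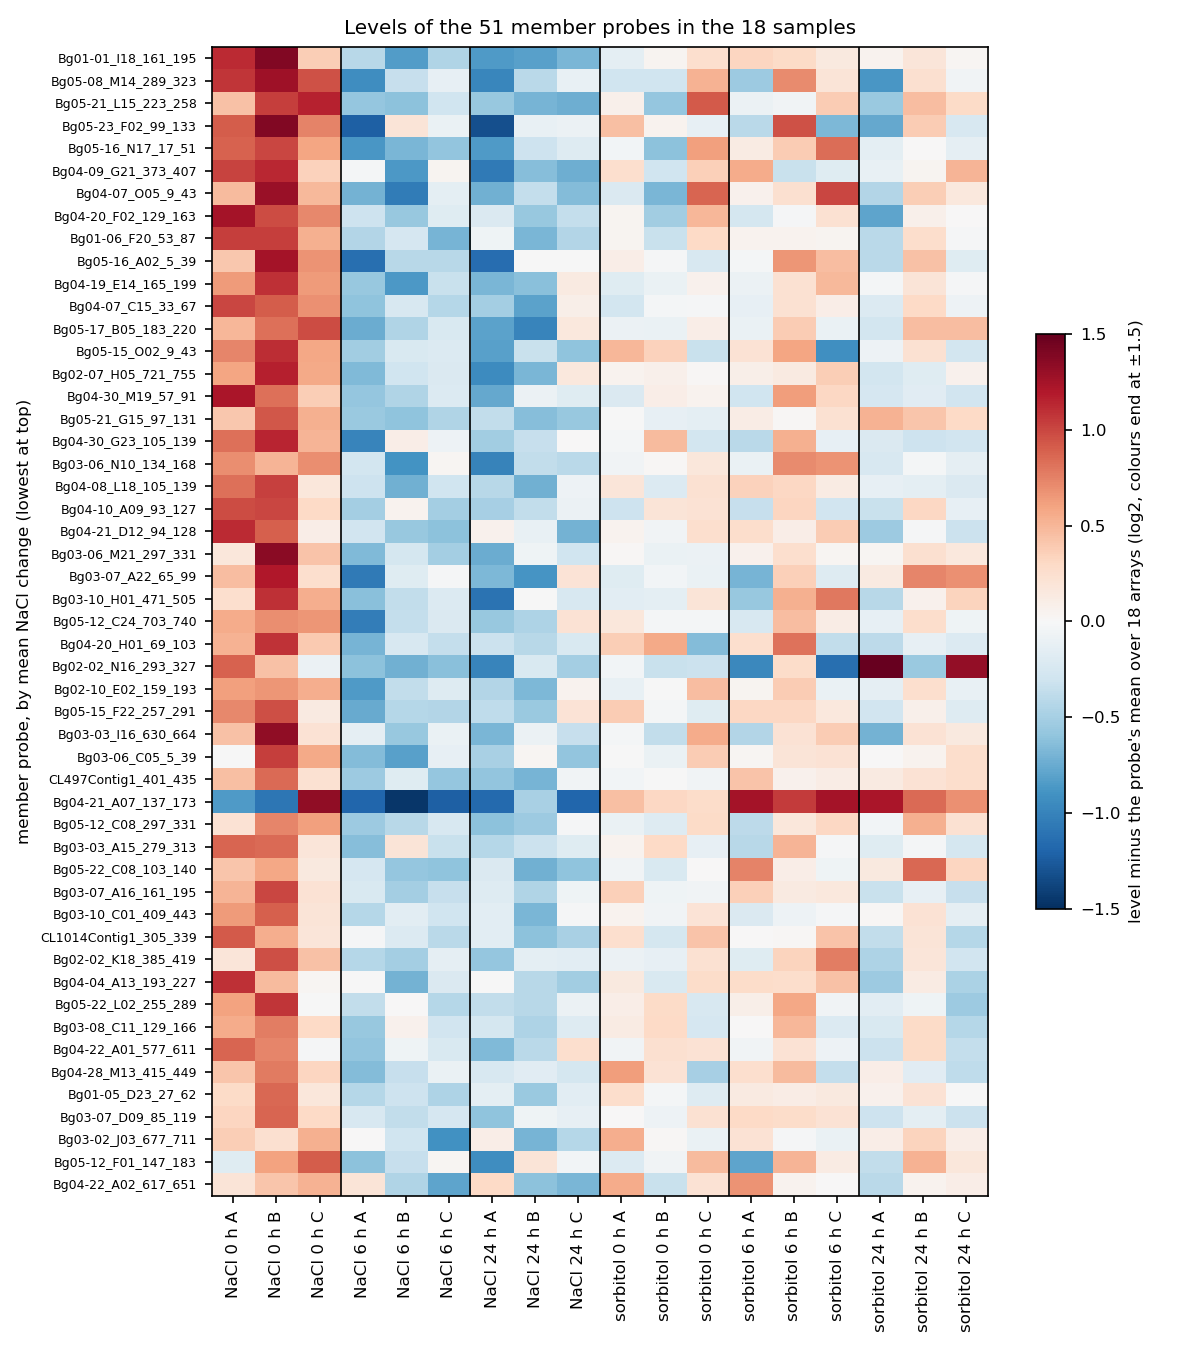
Levels of the 51 member probes (rows, by mean NaCl change) in the 18 samples (columns), each as the difference from the probe's own mean over the 18 arrays in log2 units, red above and blue below. The 3 NaCl 0 h columns are the reddest and the NaCl 6 h and 24 h columns mostly blue, while the 9 sorbitol columns lie around 0; among the NaCl samples of Bg04-21_A07_137_173 only 0 h C is red.

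By asking for a NaCl 0 h mean well above both treated means, the rule favoured probes that read high at NaCl 0 h, so the levels of the 2 untreated groups are given as a description. NaCl 0 h lay above sorbitol 0 h in 50 of the 51 members, with a median difference of 0.60, against a median of -0.04 over the other probes of level 9.5 or more. In 43 members the distance from NaCl 0 h to sorbitol 0 h exceeded the distance from sorbitol 0 h to the mean of NaCl 6 h and 24 h. Relative to sorbitol 0 h the members had a median of -0.43 at NaCl 6 h and -0.40 at NaCl 24 h, close to the limit of -0.3 that the rule set. All 3 NaCl 6 h samples lay below all 3 sorbitol 0 h samples in 25 of the 51 members, against 11.1% of all probes tested. All 3 NaCl 24 h samples did so in 10 members, against 7.21% of all. NaCl 0 h lay above sorbitol 0 h without overlap in 25 members, against 10.1% of all probes. The rule used the means of these groups, so nothing is read from these counts.

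Only 5 members had all 6 salt-treated samples below all 6 untreated samples of both series, against 0.555% of all probes tested. They were Bg01-01_I18_161_195, Bg05-21_G15_97_131, CL497Contig1_401_435, Bg03-07_A16_161_195 and Bg02-02_K18_385_419, of which the last 3 were picked out after their values were seen. Bg05-21_G15_97_131 had 8.32, 8.27 and 8.43 at NaCl 6 h and 8.50, 8.24 and 8.31 at 24 h, against 9.28, 9.81 and 9.41 at NaCl 0 h and 8.87, 8.75 and 8.73 at sorbitol 0 h. The contig probe CL497Contig1_401_435 had 9.34, 9.70 and 9.31 at NaCl 6 h and 9.29, 9.19 and 9.83 at 24 h, against 10.34, 10.74 and 10.12 at NaCl 0 h and 9.85, 9.88 and 9.84 at sorbitol 0 h. In this contig the sorbitol 0 h samples lay within 0.05 of each other, and NaCl 24 h C was lower than the lowest of them by 0.0017. For the other 46 members at least 1 salt-treated sample reached into the range of an untreated one. The rule used the means of these groups, so nothing is read from the count of 5.

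The change from NaCl 0 h rested most on replicate B. The NaCl 0 h B sample was the highest of its group in 35 members, A in 9 and C in 7. The median distance of a member from the mean of NaCl 6 h and 24 h was 1.02 for NaCl 0 h A, 1.32 for B and 0.87 for C. The repeat array of NaCl 0 h C, which the rule did not use, offers a second reading of that RNA. It differed from the first reading by a median of -0.05 over the members and 0.03 over the other probes of level 9.5 or more. It lay above the NaCl 6 h mean in 51 members and above the NaCl 24 h mean in 50, and by at least 0.7 in 33 and 28 of them, while the first array did so by at least 0.7 in 30 and 32. The repeat measures the same RNA again and is no further replicate. The rule chose probes with low NaCl 6 h and 24 h means and with a higher NaCl 0 h mean, which includes this RNA. These counts were thus largely set by the rule, and nothing is read from them.

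Bg04-21_A07_137_173 was the exception on the repeat array. Its NaCl 0 h samples read 7.73, 7.49 and 9.91, so that only C was high, and the repeat array of C read 7.31. At NaCl 6 h it had 7.38, 7.11 and 7.36 and at 24 h 7.41, 8.09 and 7.38, around the levels of NaCl 0 h A and B. It was above the negative controls on 1 of the 3 NaCl 0 h arrays and on none of the 6 salt-treated arrays. No fold is given for it. In sorbitol leaves it read 9.03, 8.88 and 8.85 at 0 h, 9.83, 9.62 and 9.83 at 6 h and 9.80, 9.43 and 9.26 at 24 h, all above every NaCl sample but NaCl 0 h C. It was the only member with a lower mean in NaCl 0 h than in sorbitol 0 h, and without NaCl 0 h C its mean NaCl change was -0.15 instead of -0.92.

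The members were not spread evenly over the array. Probes lay in 224 rows and 56 columns, and 41 of the 51 members, or 80.4%, lay in rows 113 to 176, which held 27.8% of the probes of level 9.5 or more. Bands of 16 rows from row 113 on held 9, 15, 12 and 5 members. Rows 1 to 64 held none, although 1594 probes of that level lay there, and columns 1 to 12 held none, although 1124 lay there. The row of a probe was not part of the rule. The limits of these rows and columns, however, were taken from where the members lay. The contrast of 80.4% with 27.8% is thus partly set by that choice. The comparisons below use the same rows 113 to 176.

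Probes that are not members shifted in the same rows. Over the other probes of level 9.5 or more, the median of NaCl 6 h minus NaCl 0 h was -0.45 in rows 129 to 144 and -0.43 in rows 145 to 160, and 0.52 in rows 33 to 48. The median of NaCl 24 h minus NaCl 0 h was -0.24 and -0.18 in the same middle bands and 0.28 in rows 33 to 48. NaCl 0 h minus sorbitol 0 h ran the other way, with medians of 0.27 and 0.28 in those middle bands and -0.43 in rows 33 to 48. In the sorbitol series, 6 h minus 0 h had a median of 0.07 in rows 129 to 144 and 0.09 in rows 145 to 160, and 24 h minus 0 h had -0.04 and -0.08. In the 2 bands with the most members, other probes too thus read low in NaCl 6 h and 24 h relative to NaCl 0 h, with little change in sorbitol.

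**Figure D2:**
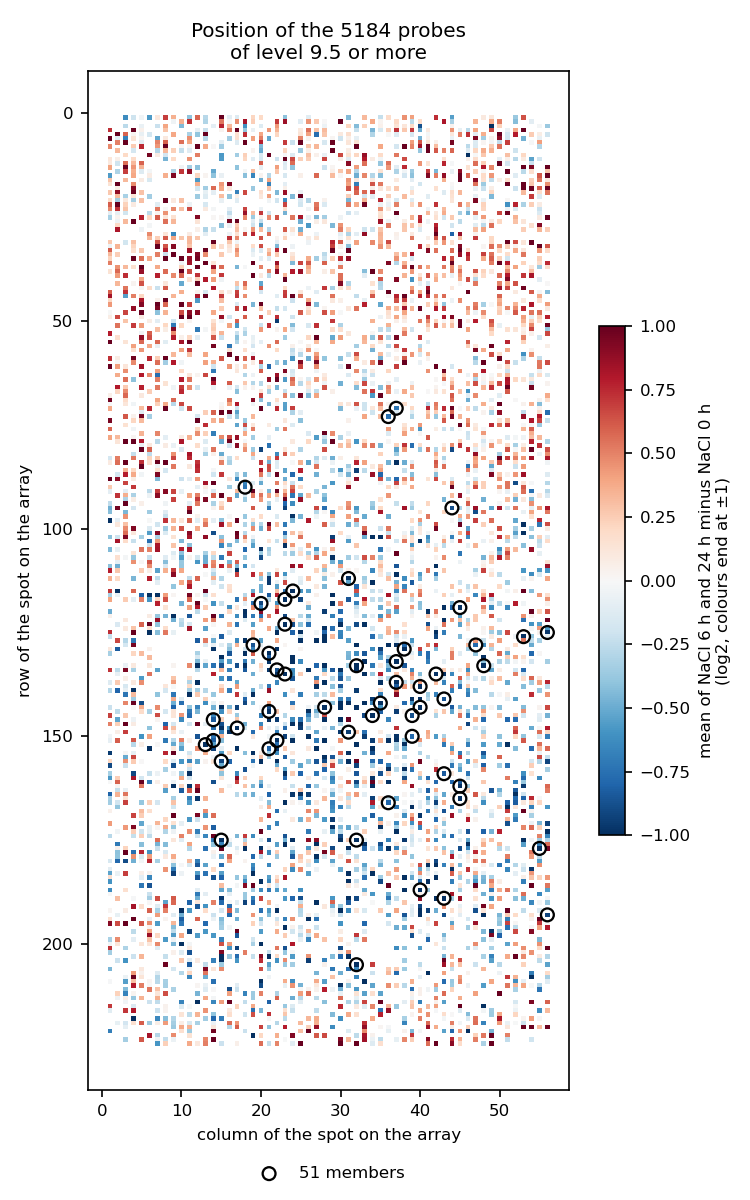
Position on the array (column and row of the spot) of the 5184 probes with a highest group mean of 9.5 or more, coloured by the mean of NaCl 6 h and 24 h minus NaCl 0 h in log2 units, with the 51 members circled. The upper rows are mostly red and rows 113 to 176 mostly blue, and 41 members lie in these rows.

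**Figure D3:**
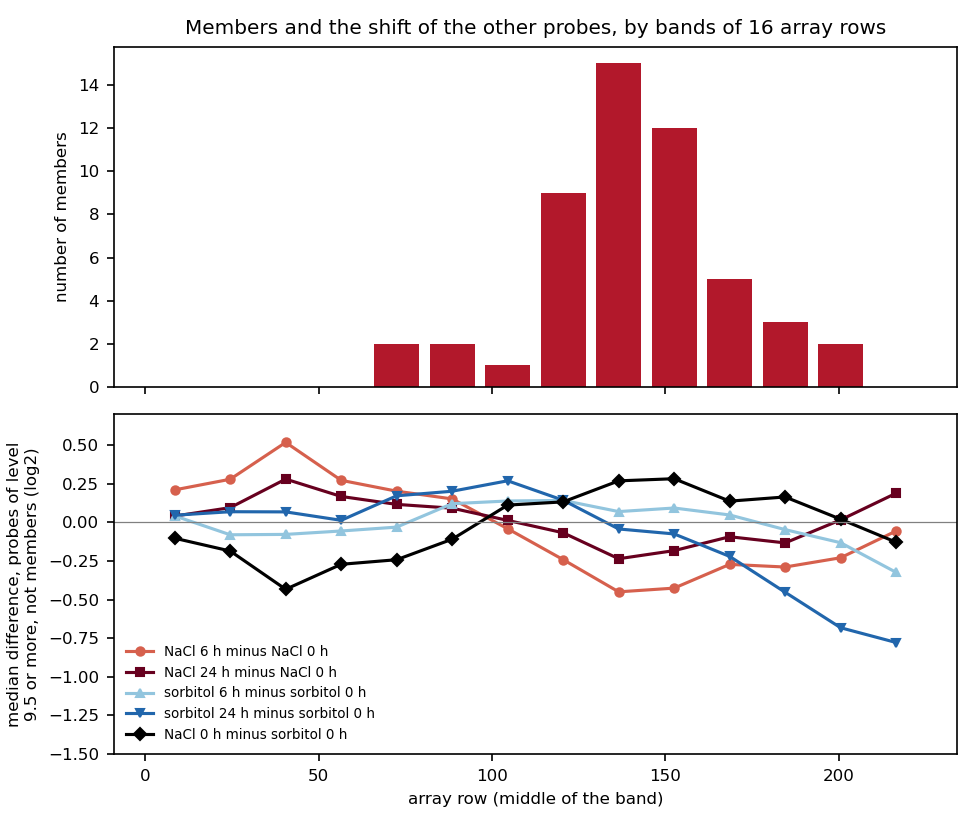
Number of members (bars, top) and the median difference between group means of the other probes of level 9.5 or more (lines, bottom, log2), by bands of 16 array rows. The bars peak in rows 129 to 144 with 15 members, where the NaCl 6 h line is at -0.45 and the line of NaCl 0 h minus sorbitol 0 h at 0.27.

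The rows differed most on NaCl 0 h A and B and on NaCl 6 h B. The deviation of a probe is its level minus its own mean over the 18 arrays. On NaCl 0 h A the median deviation of the other probes was 0.25 in rows 113 to 176, against -0.16 in the other rows, a difference of 0.41. NaCl 0 h B had a difference of 0.40, and NaCl 0 h C one of 0.05. On NaCl 6 h A and B the differences were -0.22 and -0.32, and on NaCl 6 h C -0.00444. At NaCl 24 h they were -0.14 for A, 0.05 for B and 0.12 for C. In the sorbitol series the differences were -0.20, 0.03 and -0.05 for A, B and C at 0 h, -0.14, 0.05 and 0.23 at 6 h and -0.19, -0.11 and -0.04 at 24 h. The members had median deviations of 0.59, 0.97 and 0.44 on NaCl 0 h A, B and C and of -0.57 and -0.37 on NaCl 6 h A and B, with the same sign as the rows. On NaCl 24 h A they had -0.57, also with the same sign as the rows, and on NaCl 24 h B and C -0.46 and -0.18, opposite in sign to the rows. On NaCl 0 h C and NaCl 6 h C, where the rows hardly differed, the members still had medians of 0.44 and -0.30, but the members were chosen by these values.

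**Figure D4:**
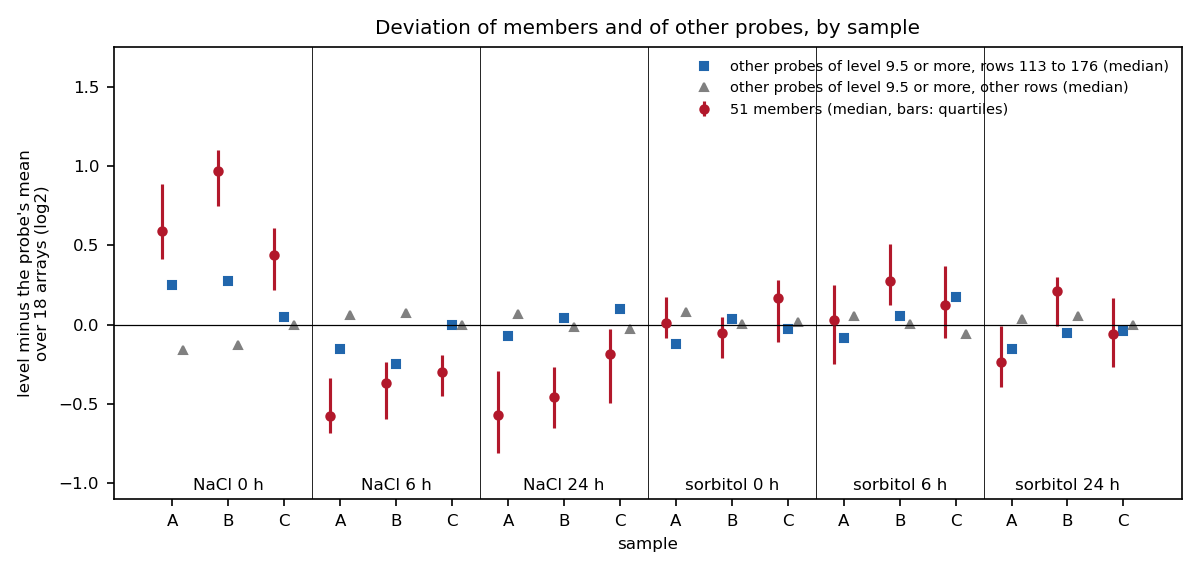
Deviation from each probe's mean over the 18 arrays (log2) by sample, as the median of the 51 members with quartiles (circles and bars) and the medians of the other probes of level 9.5 or more in rows 113 to 176 (squares) and in other rows (triangles). Squares and triangles part most on NaCl 0 h A and B, where the members are also highest, at 0.59 and 0.97.

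Probes of identical sequence at different places differ in the place of the spot and not in what they bind. There were 20 pairs of probes with the same sequence, at least 1 of them of level 9.5 or more, with 1 probe inside rows 113 to 176 and the other outside. None of these probes was a member. NaCl 6 h minus NaCl 0 h was lower at the inside spot in 17 of the 20 pairs, with a median difference between spots of -0.41. NaCl 24 h minus NaCl 0 h was lower inside in 12 pairs, with a median of -0.13. The NaCl 0 h level was higher inside in 15 pairs, with a median of 0.34. Quality control spots pointed the same way at 6 h. The control QC-oligoB-AS-3 had a median of NaCl 6 h minus NaCl 0 h of -0.18 over 50 spots inside and of 0.20 over 150 spots outside. At 24 h these were -0.27 inside and 0.17 outside. QC-5prime had -0.25 inside and 0.45 outside at 6 h, but 0.64 and 0.61 at 24 h. QC-3prime had -0.43 inside and -0.09 outside at 6 h, but 0.18 and 0.20 at 24 h.

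For 1 member the same comparison could be made with nearly its own sequence. Bg04-21_D12_94_128, in row 152, shares 31 consecutive bases with Bg01-04_B24_84_118, in row 35, and was picked out after its values were seen. The shared bases are in capitals.
Bg04-21_D12_94_128: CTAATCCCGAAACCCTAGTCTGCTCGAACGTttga
Bg01-04_B24_84_118: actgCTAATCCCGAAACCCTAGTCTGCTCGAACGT
The member had 12.07, 11.84 and 11.04 at NaCl 0 h, 10.66, 10.38 and 10.33 at 6 h and 11.02, 10.83 and 10.24 at 24 h, with means of 11.65 ± 0.54, 10.46 ± 0.18 and 10.69 ± 0.41 (SD, n = 3 each). The probe in row 35 had 10.51, 10.68 and 11.57 at NaCl 0 h, 10.54, 10.88 and 10.28 at 6 h and 11.18, 10.39 and 10.16 at 24 h, with means of 10.92 ± 0.57, 10.57 ± 0.30 and 10.57 ± 0.54. The means of the member lay at -1.20 and -0.96 relative to 0 h with no overlap between the groups, and those of the probe in row 35 at -0.35 and -0.34 with overlap. The member minus the probe in row 35 was 0.73 at NaCl 0 h, -0.11 at 6 h and 0.12 at 24 h, and in sorbitol 0.21 at 0 h, 0.45 at 6 h and 0.01 at 24 h.

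Subtracting from each array the median deviation of the probes around a spot left a smaller change. With the probes of level 9.5 or more within 8 rows and 5 columns as the neighbours, the local change had a median of -0.33 over the members and was below 0 for 46 of them. The mean NaCl change of the members, with a median of -1.05 before, had a median of -0.74 after it, and 29 members still lay at -0.7 or below. Under the whole rule 14 of the 51 remained, and 13 and 15 under the other 2 neighbourhoods tried. These corrections were chosen after the data had been seen. Of the members, 9 met the rule under all 3 of them and 32 under none. The 9 were Bg01-01_I18_161_195, Bg05-21_L15_223_258, Bg04-07_O05_9_43, Bg05-16_A02_5_39, Bg04-21_A07_137_173, Bg05-22_C08_103_140, Bg05-17_B05_183_220, Bg01-06_F20_53_87 and Bg03-06_C05_5_39, the last 4 named after their values were seen. After subtraction the mean NaCl change was -0.98 for Bg01-01_I18_161_195 and, for Bg05-21_L15_223_258, -1.14.

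The composition of the probe moved with the same values. Among the other probes in rows 113 to 176, NaCl 6 h minus NaCl 0 h had a median of -0.60 where C and T made up 55% or more of the probe, against -0.03 where they made up under 45%. In the other rows these medians were -0.09 and 0.46. For NaCl 24 h minus NaCl 0 h the medians in rows 113 to 176 were -0.32 and 0.24. Members made up 4.60% of the C- and T-rich probes of level 9.5 or more in rows 113 to 176, with 25 of 543, and 0.483% of those in the other rows, with 7 of 1450. Among probes with under 45% of C and T they made up 0.794% inside and 0.143% outside. How much of the NaCl change of each member goes with its place and its composition, beyond the values given here, was not tested.

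The comparison of 24 h with 6 h was not used by the rule. In NaCl leaves no member differed between 24 h and 6 h in limma's test at an adjusted p of 0.05, against 2.8% of all probes tested, and none had an unadjusted p under 0.05, against 12.8% of all. The difference ran from -0.53 to 0.34 over the members, with a median of 0.02 and a median standard error of 0.28, and the lowest adjusted p was 0.508. Both ends of that range belong to probes that were not measured well: Bg04-21_A07_137_173 was not well above background on any NaCl 6 h or 24 h array and Bg04-09_G21_373_407 on none at 24 h, so their differences have no place in the order. Among the other probes that the naming rule picked for this comparison, the high values were Bg05-15_F22_257_291 at 0.29 ± 0.26 (SE) and Bg05-16_A02_5_39 at 0.27 ± 0.33, and the low values Bg05-15_O02_9_43 at -0.27 ± 0.32 and Bg01-01_I18_161_195 at -0.21 ± 0.25. Bg05-15_F22_257_291 had 8.81, 8.64 and 9.40 at 24 h and 8.44, 8.77 and 8.76 at 6 h, and Bg05-15_O02_9_43 had 9.24, 9.71 and 9.45 at 24 h and 9.53, 9.83 and 9.85 at 6 h. Setting limits against 0 h on both times leaves little room for a large difference between them, and a p above the threshold does not show that the levels were equal.

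In sorbitol leaves no member passed the same test between 24 h and 6 h, against 5.52% of all probes, and 3 had an unadjusted p under 0.05, or 5.88%, against 16.9% of all. The differences had a median of -0.17 and were below 0 in 38 of the 51 members, against a median of 0.01 over all probes tested. Other probes in rows 113 to 176 with 55% or more of C and T had medians of 0.12 at sorbitol 6 h and -0.12 at 24 h, each minus 0 h. With under 45% of C and T these medians were 0.07 and 0.18. How far the differences of the members go with place and composition was not tested. Bg02-02_N16_293_327 stood far apart. It read 13.15, 8.39 and 10.27 at sorbitol 24 h, against 7.98, 9.22 and 7.82 at sorbitol 6 h, a difference of 2.26 ± 0.68 (SE, adjusted p = 0.0570). At sorbitol 6 h this probe was above the negative controls on only 1 of the 3 arrays. The size of its difference, here and in the other settings, thus rests partly on values at background. Samples A and C were high at 24 h and sample B was not, and in NaCl leaves the probe never exceeded 9.83. It passed the test without sorbitol 24 h B (adjusted p = 0.000821) and after each of the 3 position corrections (adjusted p = 0.0115 to 0.0198), and no other member passed in any of the settings that changed the values or the samples. Bg03-07_A22_65_99 had 9.21, 9.82 and 9.77 at sorbitol 24 h, against 8.39, 9.44 and 8.89 at 6 h and 8.90, 9.04 and 8.99 at 0 h, with the 24 h samples above the 0 h ones and overlapping with those of 6 h. Bg05-16_N17_17_51 was among the members with the highest sorbitol 6 h values, at 8.85, 9.11 and 9.56, against 8.69, 8.12 and 9.34 at sorbitol 0 h, where sample C lay within the 6 h range.

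The difference between the 6 h to 24 h change in NaCl and that in sorbitol passed the test for no member, against 0.555% of all probes, and 1 member, or 1.96%, had an unadjusted p under 0.05, against 16% of all. Its values ran from -2.18 for Bg02-02_N16_293_327 to 0.80 for Bg05-16_N17_17_51, with a lowest adjusted p of 0.276. The first of these probes was above the negative controls on only 1 sorbitol 6 h array, and the second on no NaCl 6 h array. At 6 h and at 24 h the NaCl mean of the members lay at a median of -0.57 and -0.35 relative to the sorbitol mean of the same time, against medians of -0.01 and 0.00 over the other probes of level 9.5 or more. The limits of the rule largely set these differences, so they carry no test.

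**Figure D5:**
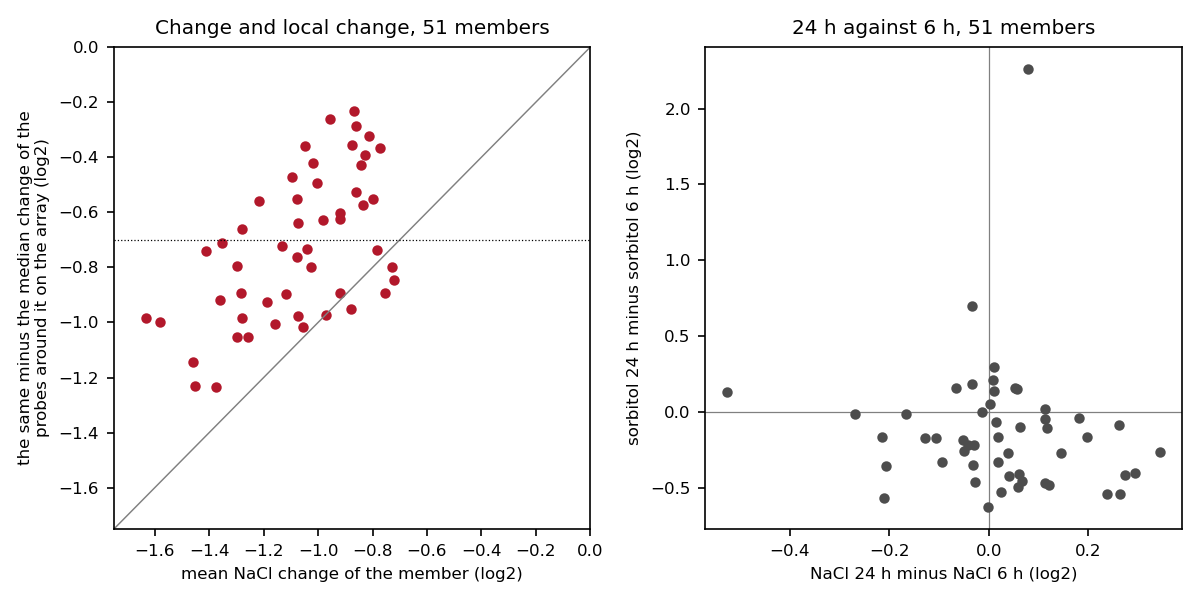
Left, the mean NaCl change of each member (x axis, log2) and the same value minus the change of the neighbouring probes (y axis, log2), with the line of equality and a dotted line at -0.7. Right, NaCl 24 h minus 6 h (x axis) and sorbitol 24 h minus 6 h (y axis) of each member (log2). The right panel includes both probes at the ends of the x axis that were not well above background. On the left 29 members lie at or below the dotted line, and on the right Bg02-02_N16_293_327 stands apart at 2.26.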

How the data were processed

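Leaf RNA was amplified, labelled with Cy5 and measured on 1-colour arrays, per the labels' protocols. The deposited scanner files hold linear foreground intensity values, per the file headers, and no background column. The authors' deposited intensity table was an alternative only: 16 of its columns share 1 normalized scale, and sorbitol 24 h B and C hold foreground medians as scanned. Foreground means plus 50 were taken as log2 and quantile-normalized over the 18 arrays, without the repeat array, as the choice of members requires. A probe was detected where it lay above the 95th percentile of the array's 70 negative control spots, and 8642 probes detected in at least 3 samples were tested.

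All 18 samples entered 1 model of 6 group means (limma 3.58.1, lmFit and eBayes, R 4.3.3), with Benjamini-Hochberg adjustment over all probes tested and a threshold of 0.05. The model was tested on simulated data, and no result of that test is given here. Figures used Python 3.11.15 and matplotlib 3.10.9. The members, the rule for naming them (extremes of NaCl change, level, 24 h against 6 h and sorbitol change, and probes next to a limit) and the tests were chosen with earlier results of these data known. Gene lists need gene descriptions and were not run. The letters A, B and C were not treated as pairs, since the labels name no shared plant and same-letter correlations of deviations, which ran from -0.33 to 0.47, were mixed. Other settings were 7 ways of processing, each of the 18 samples left out, other limits, other filters and models and, added after seeing the data, 3 position corrections and shared ties.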

Additional observations from a re-analysis of the deposited data

How the results depend on the processing

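The membership itself depended on the processing. Of the 51 probes, 45 still met the rule with normexp background correction (52 probes in all), 45 with an offset of 16 (56), 33 with foreground medians (47), 46 with both arrays of NaCl 0 h C averaged (49) and 23 without the 4 arrays of lowest signal (37). The normexp fit failed on those 4 arrays, where the intensities were used as given. Median scaling gave 31 probes (21 shared) and the authors' deposited table gave 16 probes (10 shared), where sorbitol 24 h B and C are on another scale. The 3 position corrections gave 22, 23 and 25 probes. With both 0 h groups pooled as the baseline, 21 probes met the rule and 5 were members. Falls of at least 1 left 24 probes, a level limit higher by 1 left 18, and no level limit gave 86. Ties shared in the normalization gave the same 51. With 1 sample left out, 27 to 71 probes met the rule. The lowest count, 27 with 20 of the members, came when sorbitol 0 h C was left out. The count was 34 with NaCl 0 h B left out and 71 with NaCl 24 h C left out. Only 4 members met the rule with each of the 18 samples left out in turn: Bg01-01_I18_161_195, Bg02-07_H05_721_755, Bg04-08_L18_105_139 and Bg05-22_C08_103_140, the last 3 named after their values were seen.

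The median mean NaCl change of the 51 stayed below 0 in every setting, at -1.18 to -0.92 with 1 sample left out, -0.81 with median scaling, -0.74 with pooled 0 h groups and -0.80 to -0.74 with the position corrections, but the choice of members fixes its sign. In the test of NaCl 24 h against 6 h and in the test of the difference, 0 members were called in every setting run. In the test of sorbitol 24 h against 6 h, 1 was called under each position correction (Bg02-02_N16_293_327), and 0 to 1 with 1 sample left out. With the replicate letter as a replicate block, 0 members were called in all 3 tests. The precision is limited by 3 arrays a group and by the 4 arrays of lowest signal, on which 2126 to 3216 mangrove probes had an intensity of 0.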
